A study of Drosophila melanogaster with 4 samples.

Results

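Toluene and benzene are aromatic hydrocarbons that differ by a methyl group on the ring, and the comparison described here sets the fly's transcripts after 24 h in toluene vapour directly against those after 24 h in benzene vapour. Expression was measured on 4 genome-wide arrays of Drosophila melanogaster, 1 per group: toluene, benzene, formaldehyde and an unexposed control. All 4 groups were wild-type males of the Canton-S strain, young adults 1 to 2 days old, that had been raised on cornmeal medium. The exposed flies sat with food in mesh-covered vials within a bottle of vapour, and the control flies had no exposure. The labels state neither vapour concentrations nor how many flies or which body part gave the RNA of an array, so the 2 compounds are matched in time (24 h) but cannot be called matched in dose.

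Genes were chosen on the difference between the toluene and the benzene array alone, without the control. Each gene with a probe set of its own was represented by its brightest probe set, and it counted as detected when the higher of its toluene and benzene values reached that array's median. Of 11982 genes, 8126 were detected, and the 153 that lay at least 1.4-fold apart are the genes described. Of these, 99 were higher with toluene, which is 1.22% of the detected genes, and 54 were lower with toluene, which is 0.665%. Because these shares come from the same difference that chose the genes, nothing is read from them. The function classes used below were assigned by hand within these genes, after their values were seen. Their counts by direction therefore have no share over all detected genes beside them and test nothing. All values are deposited log2 probe set values, and a difference is toluene minus benzene unless another pair is named. No group had a replicate, which means that no difference could be set against the spread between replicates and that the 1 pair of compounds is given without test, interval or error. A difference between these arrays also holds the difference between the flies, RNA preparations and hybridisations, which cannot be told apart from the exposure.

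Flies meet bacteria with antimicrobial peptides that the fat body and gut secrete. In the Imd pathway, peptidoglycan of the cell wall is bound by peptidoglycan recognition proteins, the signal passes through Imd and a kinase complex, and the NF-kappaB factor Relish turns on the genes of diptericins, cecropins and other peptides. The Toll pathway acts in parallel and drives drosomycin and the bomanins. The fat body is also the fly's store of fat, glycogen and protein and its main site of intermediary metabolism, while the midgut secretes maltases for sugars and trypsin-like proteases for protein. In mammals, cytochrome P450s oxidise benzene on the ring and toluene mainly at the methyl group, and transferases then couple the products to soluble groups.

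The 2 arrays were close for most genes. The median difference over the 8126 detected genes was 0.04, 65.6% lay above 0 and 87.8% lay within 0.2 of 0. The robust SD over genes was 0.10, which describes the spread of genes between 2 arrays and not an error. The largest difference upward was 6.69-fold and the largest downward 135-fold. Of the 153 genes, 36 were at least 2-fold apart (20 higher and 16 lower with toluene) and 117 lay between 1.4-fold and 2-fold. Both values reached their array's median in 88 of the 99 higher and 44 of the 54 lower genes, and the others counted as detected through their brighter array alone. In none of the 153 was the dimmer of the toluene and benzene values below that array's background.

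**Figure D1:**
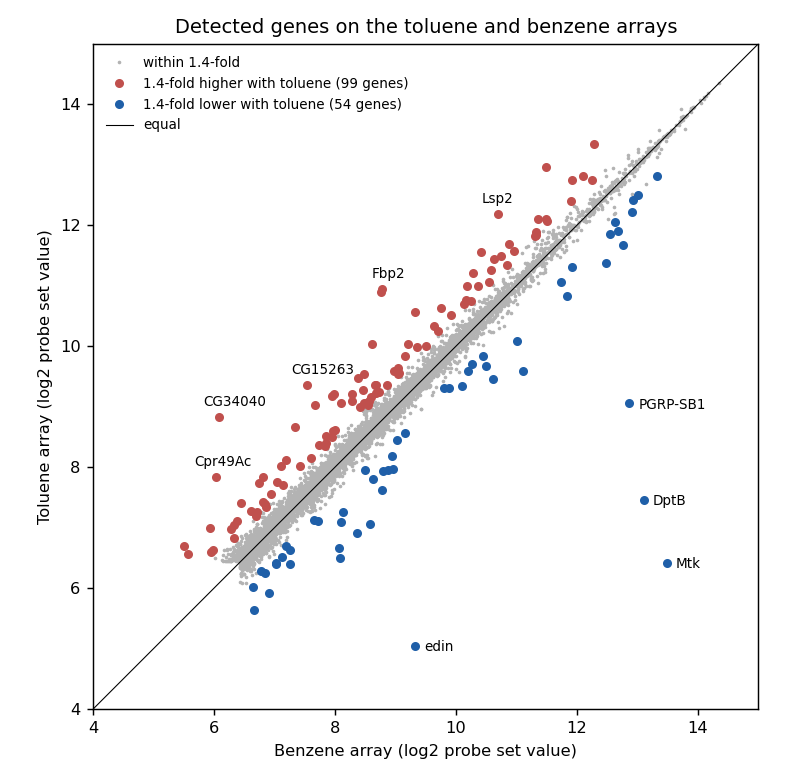
Value of each detected gene on the toluene array (vertical axis, log2) against the benzene array (horizontal axis, log2), with the line of equal values. Red points are the 99 genes past 1.4-fold upward with toluene and blue points the 54 past it downward. Mtk, DptB, PGRP-SB1 and edin lie far to the right of the line, and CG34040 lies farthest above it.

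Facts of the arrays stand beside these counts. Array medians were 6.44 for toluene, 6.42 for benzene, 6.45 for formaldehyde and 6.46 for the control, and backgrounds were 4.64 to 4.88. The 42 probe sets for RNAs added to every sample were lower on the toluene array in 39 cases, with a median difference of -0.13 and none past 1.4-fold. Centring the arrays on them moved the median difference of all genes to 0.18, and 85.1% of the genes past 1.4-fold were then higher with toluene, against 64.7% as deposited. The labelled sex could be checked: testis markers (median 12.26 with toluene and 12.20 with benzene) and accessory gland markers (12.72 and 12.80) were bright, and 4 of 5 ovary markers on the array were below background on both arrays (Yp1, Yp2, osk and vas). The fifth, Yp3, stood at 7.21 with toluene and 7.13 with benzene. Those tissues differed little between the arrays as deposited, with median list differences of 0.07 for testis genes and -0.04 for accessory gland genes. Under spike-in centring these medians were 0.20 and 0.09, beside 0.18 for all genes.

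The largest differences downward were in genes of the immune response, from Mtk at rank 1 to pirk at rank 8. Of the 54 genes lower with toluene, 17 encode immune peptides, recognition proteins or signalling proteins. Of the 99 higher genes, 0 were put in that class, and lectin-33A, which was higher, was put in another. The class was assigned by hand after the values were seen, so this split partly follows from the assignment. Mtk, which encodes the antifungal and antibacterial peptide metchnikowin, stood at 6.41 on the toluene array, 13.49 on the benzene array, 12.14 on the formaldehyde array and 10.02 on the control array. It was 135-fold lower with toluene than with benzene. DptB, for a diptericin active against Gram-negative bacteria, had 7.46 with toluene and 13.10 with benzene, with 10.82 on the formaldehyde array and 8.92 on the control array, a difference of 50.0-fold. For both genes the unexposed flies thus lay between the toluene and the benzene flies (toluene minus control of -3.61 for Mtk and -1.46 for DptB). In bulk RNA, fewer cells of a type and less RNA per cell cannot be told apart.

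The other peptide genes, edin, CecB and Drs, were lower with toluene as well. The gene edin, induced in infection, had 5.04 with toluene, 9.32 with benzene, 5.32 with formaldehyde and 4.39 in the control, where it was below background. It was 19.4-fold lower with toluene than with benzene. The cecropin gene CecB had 6.49 with toluene and 8.08 with benzene, against 6.48 with formaldehyde and 6.35 in the control, and was 3.01-fold lower with toluene. Drs, for the antifungal peptide drosomycin, had 10.83 with toluene, 11.84 with benzene, 13.29 with formaldehyde and 11.11 in the control, 2.01-fold lower with toluene. Among the antimicrobial peptide genes the benzene array was thus the highest of the 4 for Mtk, DptB, edin and CecB, and the formaldehyde array for Drs. Of 22 genes on the antimicrobial peptide list, 13 had a probe set of their own and 8 were detected. Of those 8, 5 were at least 1.4-fold lower with toluene and 0 higher, with a median of -1.30 beside 0.04 for all genes. Mtk and edin were detected through their benzene value alone, and the median was -0.63 where both values had to reach their median and -0.26 over all 13 with no filter. The 3 others had smaller differences: Def at -0.26, Drsl5 at 0.13 and Drsl4 at 0.34.

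Bomanins are short secreted peptides downstream of Toll. BomS5 had 9.59 with toluene, 11.11 with benzene, 12.72 with formaldehyde and 9.84 in the control, and BomBc3 had 11.38, 12.48, 13.22 and 11.57 on the same arrays in that order. They were 2.86-fold and 2.15-fold lower with toluene. Bbd, whose product bomanin secretion or stability depends on, was 1.61-fold lower (11.86 with toluene and 12.55 with benzene). For these 3 genes the formaldehyde array was the highest and the toluene array was within 0.25 of the control. On the list of bomanins and similar peptides, 2 of 9 detected members were at least 1.4-fold lower with toluene and 0 higher. The median was -0.14, which spike-in centring brought to about 0. BomBc2 (-0.06), BomS6 (-0.0066), BomS4 (0.0054) and IM33 (0.0045) hardly differed between the arrays.

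Recognition genes were also among the lower ones. PGRP-SB1, for a secreted amidase that cleaves peptidoglycan, had 9.05 with toluene, 12.87 with benzene, 9.80 with formaldehyde and 9.04 in the control, 14.1-fold lower with toluene. PGRP-LB, another amidase that dampens Imd signalling, had 7.06 with toluene and 8.58 with benzene, and 7.34 with formaldehyde and 7.05 in the control, 2.87-fold lower. PGRP-SC2, also an amidase gene, was 1.52-fold lower, at 11.31 with toluene and 11.92 with benzene, with 10.88 in the control. In these amidase genes benzene gave the highest value of the 4 arrays. On the list, 3 of 6 detected peptidoglycan recognition genes were at least 1.4-fold lower with toluene and 0 higher, with a median of -0.50, or -1.06 with the filter at the 75th percentile. PGRP-LF was at -0.39, PGRP-LA at -0.06 and the intracellular receptor gene PGRP-LE at 0.0084. NimB1, of a family with phagocytosis receptors, was 1.51-fold lower with toluene (6.25 and 6.85).

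Among Imd signalling genes the difference was limited to Rel and pirk at this threshold. Rel, which encodes Relish, had 9.46 with toluene, 10.61 with benzene, 10.26 with formaldehyde and 9.29 in the control, and was 2.22-fold lower with toluene. The gene pirk, for a feedback inhibitor of the pathway, had 6.90 with toluene and 8.36 with benzene, with 7.02 with formaldehyde and 6.89 in the control, 2.74-fold lower. Of 13 detected genes on the list, these 2 were at least 1.4-fold lower and 0 were higher. The list median of 0.02 turned to -0.02 with quantile or lowess scaling. The adaptor gene imd had 7.05 with toluene and 6.71 with benzene, a difference of 0.34. Among the other components dnr1 was at 0.28, key at 0.17, Dredd at 0.05, IKKbeta at -0.05, Tab2 at -0.06 and Diap2 at -0.07. Of 12 detected Toll signalling genes, 0 reached 1.4-fold in either direction, and their differences ran from -0.07 to 0.27. The Toll list median of 0.08 turned to -0.02 with the filter at the 75th percentile.

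The remaining immune genes have other roles. Diedel, for a secreted protein that dampens immune signalling, had 7.62 with toluene, 8.77 with benzene, 6.54 with formaldehyde and 6.49 in the control. It was 2.21-fold lower with toluene than with benzene although the toluene value lay 1.14 above the control. Hayan, for a serine protease of the melanisation and Toll cascades, was 1.51-fold lower (6.52 with toluene and 7.11 with benzene). Tsf1, for an iron-binding transferrin of the hemolymph, was 1.42-fold lower (12.51 and 13.01), with 12.06 in the control. The stress peptide gene TotC barely differed between the aromatics (12.69 with toluene and 12.78 with benzene) and stood at 10.52 in the control. Of the 17 immune genes, the control value lay nearer the toluene value in 16, and nearer the benzene value in Mtk. Over all detected genes the control lay nearer the toluene value in 55.0%. The toluene minus control differences of the 17 had a median of 0.05 and their benzene minus control differences one of 1.32.

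**Figure D2:**
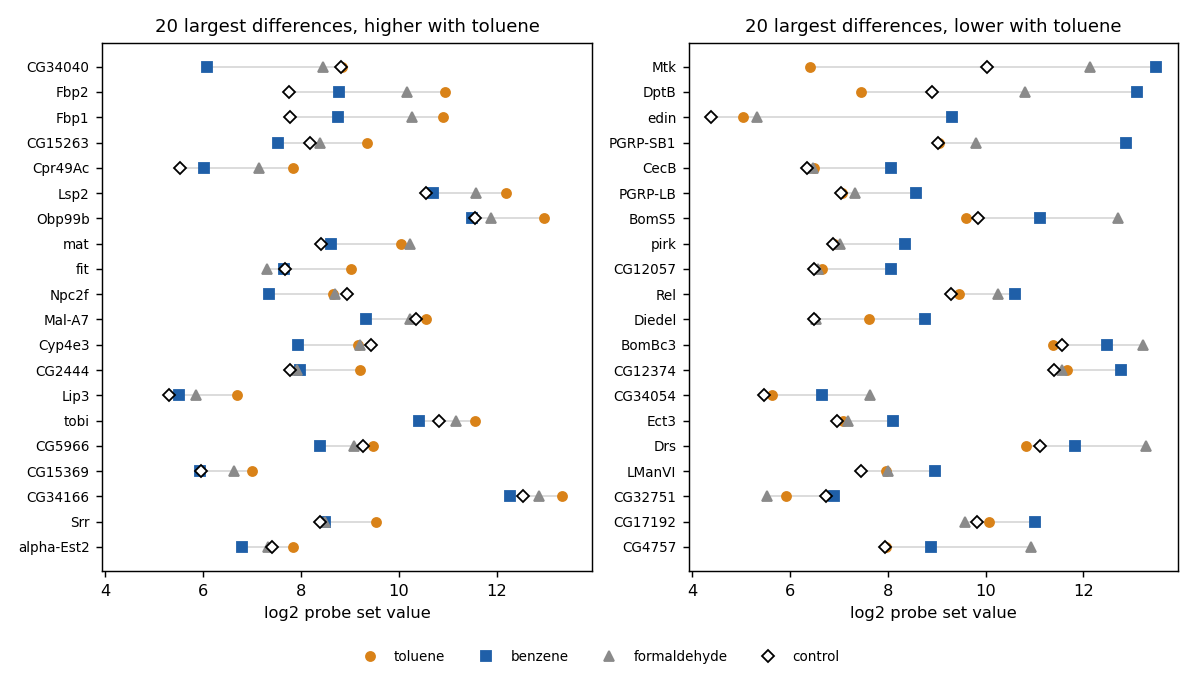
Values (log2, horizontal axis) on the 4 arrays for the 20 largest differences higher with toluene (left panel) and the 20 lower with toluene (right panel), with 1 symbol per array. Control diamonds sit on or beside the toluene circle for PGRP-SB1, PGRP-LB and pirk, and beside the benzene square for Lsp2, Obp99b and fit.

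Fat body genes led the high end together with genes of no assigned role. Fbp1 and Fbp2, for fat body proteins tied to protein storage, both differed by over 4-fold. Fbp2 had 10.95 with toluene, 8.78 with benzene, 10.17 with formaldehyde and 7.75 in the control, 4.51-fold higher with toluene than with benzene. Fbp1 had 10.90, 8.76, 10.26 and 7.77 on these arrays in that order, 4.41-fold higher. The benzene values were themselves 1.03 and 0.99 above the control, so in these 2 genes all exposed arrays were above the unexposed one. Lsp2, for a larval serum storage protein, had 12.19 with toluene, 10.69 with benzene, 11.58 with formaldehyde and 10.56 in the control, 2.82-fold higher. The gene fit, for a fat body signal secreted after protein feeding, had 9.03 with toluene, 7.66 with benzene, 7.32 with formaldehyde and 7.66 in the control, 2.58-fold higher. CCHa2, for a nutrient-responsive peptide hormone, was 1.63-fold higher (10.34 with toluene and 9.63 with benzene).

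In Lsp2, fit and CCHa2 the benzene minus control difference was between -0.0040 and 0.13. Of 6 detected genes on the fat body list, 4 passed 1.4-fold upward with toluene and 0 downward. The lipoprotein genes apolpp (0.17) and Apoltp (-0.01) were not among them, although they are made in the same organ. The median was 1.43. The 4 fat body markers on the array, Fbp1, Fbp2, Lsp2 and fit, are the same 4 genes and not further ones. They were higher with toluene (by 1.37 to 2.17) alongside the metabolic genes described next, and their part in those differences was not tested.

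Enzymes of amino acid, folate and purine metabolism, a class assigned by hand after the values were seen, numbered 14, all higher with toluene. Enzymes of this kind within 1.4-fold are not counted in it, so the shared direction is not a result. Serine and glycine metabolism was represented by Srr, for serine racemase (9.54 with toluene, 8.48 with benzene, 8.49 with formaldehyde and 8.39 in the control, 2.08-fold), by Gcat, for glycine C-acetyltransferase (7.76 with toluene and 7.04 with benzene, 1.65-fold), and by Shmt. Shmt, for serine hydroxymethyltransferase, which loads carbon units onto folate, had 11.00 with toluene, 10.37 with benzene, 10.71 with formaldehyde and 10.59 in the control, 1.55-fold higher. The other folate genes were close to it in size: pug (10.70 with toluene and 10.14 with benzene, 1.47-fold), Sardh (7.26 and 6.70, 1.47-fold) and Mthfs (9.02 and 8.54, 1.4-fold). Of 7 detected genes on the list of alcohol, aldehyde and single-carbon enzymes, 4 passed 1.4-fold upward and 0 downward, with a median of 0.49, or 0.32 with the filter at the 75th percentile. The 3 others were Aldh-III (0.16), Fdh, for the formaldehyde dehydrogenase (0.11), and Nmdmc (-0.12).

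Purine synthesis draws on these folates. Gart, a multifunctional enzyme of the pathway, had 9.21 with toluene, 8.29 with benzene, 8.77 with formaldehyde and 8.66 in the control, 1.89-fold higher. Prat2, for the amidotransferase of the committed step, was 1.46-fold higher (10.25 with toluene and 9.70 with benzene). A list of 6 purine genes, drawn up after the values were seen, also held Paics (0.44), Pfas (0.30), Prat (0.05) and ras (-0.08). The rest of the 14 act on other amino acids: arg, for arginase (1.55-fold), the homocysteine methyltransferase gene CG10621 (1.52-fold), Tmlh (1.47-fold), P5cr-2, of proline synthesis (1.46-fold), LKRSDH, of lysine breakdown (1.46-fold), and the aminotransferase gene Got2 (1.42-fold). In 12 of the 14 the control value lay nearer the benzene value, beside 3653 of all 8126 detected genes. The toluene and benzene values also chose these genes, so this count tests nothing. The median of the 14 was 0.52 for toluene minus control and -0.10 for benzene minus control.

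Sugar and polyol enzymes, also classed by hand after the values were seen, gave 8 genes, all higher with toluene. Sodh1, for sorbitol dehydrogenase, had 12.75 with toluene, 11.93 with benzene, 12.32 with formaldehyde and 12.17 in the control, 1.78-fold higher. Pepck1, the enzyme that commits carbon to gluconeogenesis, had 12.81 with toluene, 12.10 with benzene, 12.84 with formaldehyde and 12.67 in the control, 1.63-fold higher. In Pepck1 the toluene array was 0.14 above the control and the benzene array 0.57 below it. Miox, for the oxygenase that opens inositol, had 9.98 with toluene, 9.35 with benzene and 10.12 in the control, 1.55-fold higher, with the control above both aromatics. The others were the xylulose reductase gene CG7322 (1.75-fold), smp-30, a regucalcin gene (1.67-fold), the xylulokinase gene CG3534 (1.60-fold), the galactokinase gene Galk (1.53-fold) and the aldose epimerase gene CG32444 (1.43-fold). The 8 were picked from genes past 1.4-fold, so smaller differences on a whole list are no contrast with them. Of 16 detected genes on the sugar and glycogen list, 0 reached 1.4-fold, beside 1.22% higher and 0.665% lower among all detected genes. Gapdh1 (0.0056), Eno (-0.0036) and Ald1 (0.01) were nearly equal. The list median of 0.03 turned to -0.0028 under lowess.

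Carbohydrate-cleaving enzymes of the gut and fat body, likewise classed by hand, were mostly higher with toluene, in 8 of the 10 genes past 1.4-fold. Mal-A7, for a maltase, had 10.56 with toluene, 9.33 with benzene, 10.23 with formaldehyde and 10.35 in the control, 2.35-fold higher. The alpha-glucosidase gene tobi, a target of insulin-like and adipokinetic signals, had 11.55 with toluene, 10.42 with benzene, 11.16 with formaldehyde and 10.81 in the control, 2.19-fold higher. Amyrel, for an amylase relative, had 8.12 with toluene, 7.19 with benzene, 7.60 with formaldehyde and 7.13 in the control, 1.90-fold higher. For Mal-A7 it was the benzene array that lay away from the control, and for Amyrel the toluene array. Mal-A8 (1.53-fold), Mal-A1 (1.48-fold), the beta-galactosidase gene Gal (1.45-fold), Mal-A4 (1.43-fold) and the mannosidase gene LManII (1.41-fold) complete the 8. The 2 lower ones were the beta-galactosidase gene Ect3 (7.09 with toluene, 8.11 with benzene, 7.19 with formaldehyde and 6.96 in the control, 2.02-fold lower) and the mannosidase gene LManVI (7.97 with toluene, 8.96 with benzene, 8.0 with formaldehyde and 7.46 in the control, 1.99-fold lower). LManII and LManVI, which belong to the same enzyme family, thus differed in opposite directions.

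Gut proteases went the opposite way from the maltases. Of 15 proteases and peptidases of the digestive type, 13 were lower with toluene and 2 higher. The carboxypeptidase gene CG12374 had 11.67 with toluene, 12.77 with benzene, 11.57 with formaldehyde and 11.41 in the control, 2.14-fold lower. Among the Jonah genes, serine proteases of the midgut, Jon65Ai had 9.68 with toluene, 10.50 with benzene, 9.97 with formaldehyde and 10.22 in the control, 1.77-fold lower. Jon99Fi had 7.81 with toluene and 8.62 with benzene, 1.76-fold lower, with 8.13 with formaldehyde and 8.42 in the control. The benzene value was the highest of the 4 in all 3 of these genes, and the toluene value was below the control in both Jonah genes.

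The Jonah family as a whole had 11 detected members of 13. All 11 had a lower value with toluene than with benzene, as 2793 of all 8126 detected genes did. The 11 ran from -0.18 for Jon44E to -0.82 for Jon65Ai, with a median of -0.51, or -0.37 under spike-in centring. At least 1.4-fold lower were 7 of them: besides the 2 above, Jon25Bi (1.62-fold), Jon99Ci (1.59-fold), Jon25Bii (1.5-fold), Jon74E (1.42-fold) and Jon65Aiii (1.42-fold). Of the other 10 trypsin-type genes, 9 were below 0 with a median of -0.18, or -0.05 under spike-in centring, and epsilonTry was past 1.4-fold (11.90 with toluene, 12.68 with benzene and 12.41 in the control, 1.72-fold lower). Of 9 detected maltase genes, 8 were above 0, beside 65.6% of all detected genes. Their median was 0.37, or 0.51 under spike-in centring, and 4 were past 1.4-fold, all higher. Mal-A5 was the exception at -0.08. These 3 families were set apart after their values were seen. On the digestive enzyme list that pools them, 6 of 38 detected genes passed 1.4-fold upward and 9 downward, with a median of -0.18, or -0.05 under spike-in centring. Probe sets of near-identical family members can read each other's RNA, so single Jonah and maltase genes are uncertain.

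**Figure D3:**
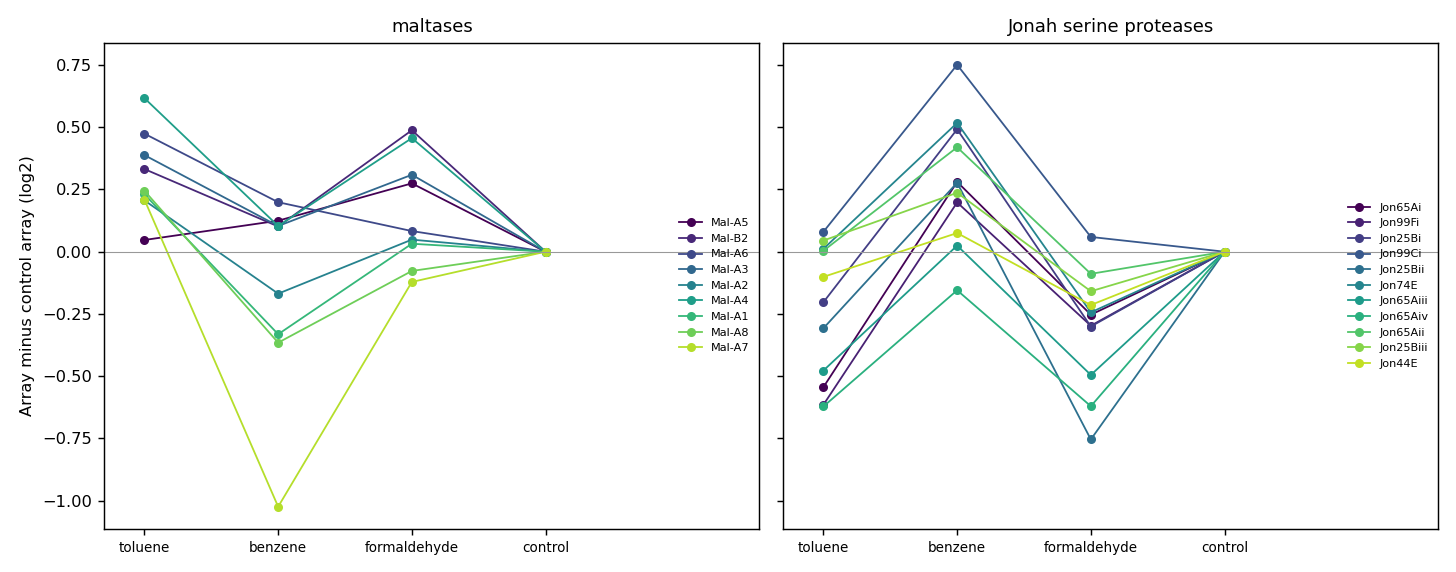
Difference from the control array (log2, vertical axis) on the toluene, benzene and formaldehyde arrays for the 9 detected maltase genes (left) and 11 detected Jonah protease genes (right), with 1 line per gene and the control at 0. Every Jonah line is lower at toluene than at benzene, and 8 of 9 maltase lines are higher at toluene than at benzene.

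The remaining gut peptidases were smaller. The carboxypeptidase-type genes CG14820 (1.55-fold), CG7025 (1.54-fold) and CG18585 (1.43-fold) and the serine protease gene CG11911 (1.46-fold) were lower with toluene, while CG3739 (1.78-fold) and CG8539 (1.47-fold) were higher. Protease inhibitor genes were split. CG15369, a cystatin-type gene, had 7.0 with toluene, 5.93 with benzene, 6.63 with formaldehyde and 5.97 in the control, 2.10-fold higher, and CG16704 was 1.43-fold higher. Kaz-m1 was 1.51-fold lower. Peritrophin-15a, for a chitin-binding protein of the gut lining, was 1.43-fold higher with toluene than with benzene (11.06 and 10.55), yet both lay below the control at 11.75.

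Lipid genes, a class assigned by hand after the values were seen, were higher in 5 of 6 cases. Npc2f, of a family of sterol-binding proteins, had 8.66 with toluene, 7.34 with benzene, 8.70 with formaldehyde and 8.94 in the control, 2.49-fold higher. It was past 1.4-fold alone among 8 detected genes of its list. Lip3, for a lipase raised in fasting flies, had 6.69 with toluene, 5.50 with benzene, 5.86 with formaldehyde and 5.30 in the control, 2.28-fold higher. The lipase gene CG5966 was 2.12-fold higher (9.47 with toluene and 8.39 with benzene), dob, a relative of the fat lipase brummer, 1.65-fold higher, and CG5958 1.60-fold higher. Npc2f, CG5966 and dob stood low on the benzene array compared with the control, by 1.60, 0.88 and 0.71, whereas Lip3 stood high on the toluene array, by 1.39. The lipase gene CG17192 was 1.91-fold lower with toluene (10.08 and 11.01).

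On the list of insulin, starvation and fat storage genes, 4 of 25 detected members were at least 1.4-fold higher and 0 lower, with a median of 0.09, or 0.06 under lowess and 0.22 under spike-in centring. They were Lip3, tobi, Pepck1 and sug, for a transcription factor of sugar sensing (9.54 with toluene and 9.04 with benzene, 1.42-fold). InR, the insulin receptor gene that is raised by low insulin signalling, did not share in this (7.23 with toluene and 7.20 with benzene, against 8.12 with formaldehyde and 7.30 in the control). The fat lipase gene bmm was at 0.35, the adipokinetic hormone gene Akh at -0.15 and foxo at -0.17.

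Genes of detoxification-type enzymes were mostly small in their differences. Cyp4e3, a P450 gene, had 9.18 with toluene, 7.94 with benzene, 9.21 with formaldehyde and 9.43 in the control, 2.35-fold higher. It was the 1 gene past 1.4-fold among 59 detected P450 genes, of which 45 lay above 0 with a median of 0.11. That median was 0.06 under quantile scaling and 0.25 under spike-in centring. Here again the benzene value lay apart, 1.49 below the control. Cyp6g1, known for insecticide resistance, had 12.30 with toluene and 11.99 with benzene, with 12.09 in the control. Of 32 detected glutathione S-transferase genes, 27 lay above 0, with a median of 0.21, or 0.34 under spike-in centring, and GstD7 alone passed 1.4-fold (7.19 with toluene and 6.69 with benzene, 1.41-fold). GstD1 had 12.82 with toluene and 12.48 with benzene, with 12.57 in the control, a difference of 0.35. Among all detected genes 65.6% lay above 0, against 84.4% of the transferases and 76.3% of the P450 genes. Of 18 detected UDP-glycosyltransferase genes, Ugt37A3 alone passed (1.4-fold higher), with a list median of 0.11, or 0.06 with no filter and 0.24 under spike-in centring.

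Other oxidoreductases and esterases gave 12 genes higher and 1 lower, Cyp4e3, GstD7 and Ugt37A3 included. This class was assigned by hand too, and enzymes among the genes left without a role are not counted in it. The esterase gene alpha-Est2 had 7.83 with toluene, 6.80 with benzene, 7.33 with formaldehyde and 7.41 in the control, 2.04-fold higher. CG31075, for an aldehyde dehydrogenase, was 1.75-fold higher (9.27 with toluene and 8.46 with benzene), and the aldo-keto reductase gene CG18547 1.64-fold higher (9.36 and 8.65). The dehydrogenase gene CG3699 (1.53-fold), Jhe, for juvenile hormone esterase (1.49-fold), Cyt-b5-r (1.49-fold), CG7966 (1.47-fold), Fmo-1, for a flavin monooxygenase (1.43-fold), and Est-Q (1.41-fold) were also higher. In 10 of these 12 the control lay nearer the benzene value, beside 3653 of all 8126 detected genes. That count too reuses the values that chose the genes and tests nothing. The lower one was the esterase gene CG4757 (7.96 with toluene, 8.88 with benzene, 10.93 with formaldehyde and 7.94 in the control, 1.89-fold lower). Jheh1, for an epoxide hydrolase, had no probe set of its own on the array.

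**Figure D4:**
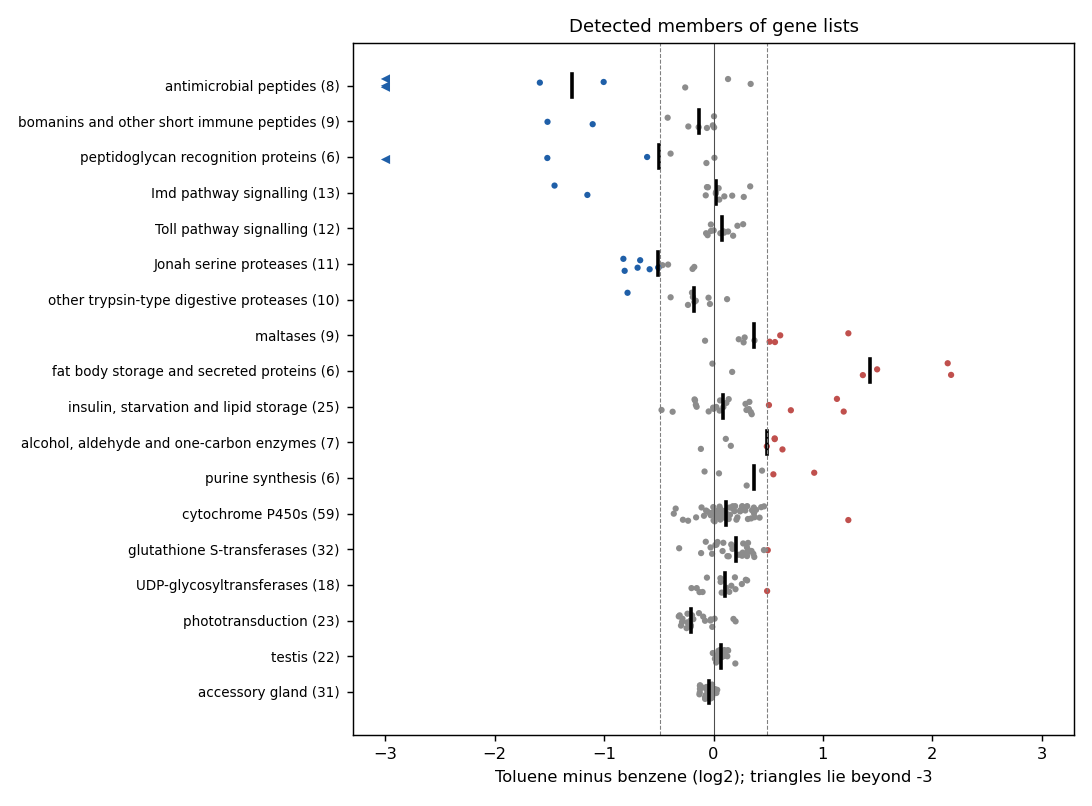
Toluene minus benzene difference (log2, horizontal axis) of every detected member of 18 gene lists, with the number of members in parentheses, black bars at list medians and dashed lines at 1.4-fold. Blue and red points are past 1.4-fold, and triangles at the left edge are Mtk, DptB, edin and PGRP-SB1, which lie beyond -3.

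Genes with other named roles numbered 17, all higher with toluene. Roles were assigned by hand after the values were seen. The 19 lower genes outside the classes above were all left without a role, so the shared direction of these 17 is not a result. Cpr49Ac, for a cuticle protein, had 7.84 with toluene, 6.03 with benzene, 7.14 with formaldehyde and 5.52 in the control, 3.52-fold higher. It was the 1 gene past 1.4-fold among 34 detected cuticle genes, whose median of -0.01 turned to 0.13 under spike-in centring and 0.03 with the filter at the 75th percentile. Obp99b, for an odorant-binding protein, had 12.96 with toluene, 11.50 with benzene, 11.88 with formaldehyde and 11.57 in the control, 2.76-fold higher. Another gene of that family, Obp83cd, was 1.53-fold higher, and these were 2 of 27 detected odorant-binding genes, with a family median of 0.13, or 0.02 with no filter and 0.26 under spike-in centring. The gene mat had 10.04 with toluene, 8.61 with benzene, 10.22 with formaldehyde and 8.41 in the control, 2.70-fold higher. Arc1 and Arc2, relatives of a retrotransposon capsid gene, were 1.76-fold and 1.58-fold higher. Arc1 had 11.70 with toluene and 10.88 with benzene, with 11.07 in the control.

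The rest of these 17 ran from 1.4-fold to 2.00-fold. CG16727 (2.00-fold), the chitin-binding gene CG14957 (1.74-fold), the proton pump subunit gene Vha100-4 (1.66-fold), the tetraspanin gene Tsp42Ep (1.64-fold), Tes (1.57-fold), cDIP (1.56-fold), Reg-2 (1.52-fold), lectin-33A (1.51-fold) and UK114 (1.4-fold) fell in this range, as did sug and Peritrophin-15a above. Vha100-4 was past 1.4-fold alone among 31 detected pump subunits, and its values with toluene (7.11) and benzene (6.38) were both below that in the control (7.22).

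For 45 of the 153 genes no role is assigned here, 26 of them higher and 19 lower with toluene. CG34040 had 8.83 with toluene, 6.09 with benzene, 8.46 with formaldehyde and 8.82 in the control, 6.69-fold higher than with benzene. The other 3 arrays thus lay together and the benzene array below them. CG15263 had 9.36 with toluene, 7.53 with benzene, 8.38 with formaldehyde and 8.19 in the control, 3.54-fold higher. It was the 1 detected gene at least 1.4-fold above the control with toluene and at least 1.4-fold below it with benzene. CG2444 had 9.21 with toluene, 7.98 with benzene, 7.93 with formaldehyde and 7.79 in the control (2.34-fold), and CG34166 had 13.34, 12.28, 12.86 and 12.54 on these arrays in that order (2.09-fold). The other 22 were between 1.4-fold and 1.99-fold higher: CG4835, CG31446, CG4269, CG18404, CG34136, CG5697, CG3609, CG9119, CG10516, CG14567, CG31998, CG16898, CG15449, CG16926, CG5767, CG13325, CG9886, CG43133, CG14406, CG3984, CG34331 and CG5953.

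Among the 19 lower genes of no assigned role, CG12057 had 6.65 with toluene, 8.06 with benzene, 6.57 with formaldehyde and 6.49 in the control, 2.65-fold lower. CG34054 had 5.64 with toluene, 6.66 with benzene, 7.64 with formaldehyde and 5.47 in the control, 2.03-fold lower. CG32751 was placed otherwise: toluene gave 5.92 and benzene 6.90, with 5.53 with formaldehyde and 6.74 in the control (1.98-fold lower), so the toluene and formaldehyde arrays were below the unexposed flies and the benzene array near them. The other 16 were between 1.41-fold and 1.85-fold lower: CG3106, CG15044, CG13077, CG14762, CG30026, CG6330, CG9377, CG12116, CG11741, CG15553, CG15043, CG6788, CG43673, CG1946, CG14615 and CG3348.

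The control array, which did not enter the difference, was set beside each of the 153 genes. Of the 99 genes higher with toluene, 55 were at least 1.4-fold above the control on the toluene array, where 1.82% of all detected genes were, and 19 were at least 1.4-fold below it on the benzene array, where 0.381% of all were. The control value lay nearer the benzene value in 76 of the 99 and nearer the toluene value in 23. Among all 8126 detected genes it lay nearer the benzene value in 3653. Of the 54 genes lower with toluene, 37 were at least 1.4-fold above the control on the benzene array, where 1.38% of all detected genes were, and 9 were at least 1.4-fold below it on the toluene array, where 0.258% of all were. The control lay nearer the toluene value in 39 of these 54, against 55.0% of all detected genes. These differences reuse the toluene and benzene values that chose the genes and share 1 control array, so the counts describe where the control lies and test nothing.

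In outline, 49 of the 99 higher genes were 1.4-fold above the control with toluene while benzene was within 1.4-fold of it. Lsp2, fit, Obp99b and Srr are examples, and 1.28% of all detected genes had that pattern. A further 16 were within 1.4-fold of the control with toluene and below it with benzene, against 0.295% of all detected genes. They include CG34040, Npc2f, Cyp4e3, Mal-A7 and Pepck1. In 26 both arrays were within 1.4-fold of the control, as in 96.8% of all detected genes. In 5 both were above it (0.529% of all), Fbp1, Fbp2, Cpr49Ac, CG13325 and CG43133. In 2 both were below it (0.0738% of all), CG5767 and Peritrophin-15a. Of the 54 lower genes, 31 were above the control with benzene while toluene was within 1.4-fold of it, as in PGRP-SB1 and Rel. Among all detected genes 0.825% had that pattern. Another 7 were below the control with toluene while benzene was within 1.4-fold, as in Jon65Ai and CG32751, against 0.160% of all. The formaldehyde array did not enter these classes. In 10 both arrays were within 1.4-fold. In 4 both were above the control, Diedel, LManVI, CG18585 and edin, whose control value was below background, and in Mtk and DptB benzene was above and toluene below it.

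**Figure D5:**
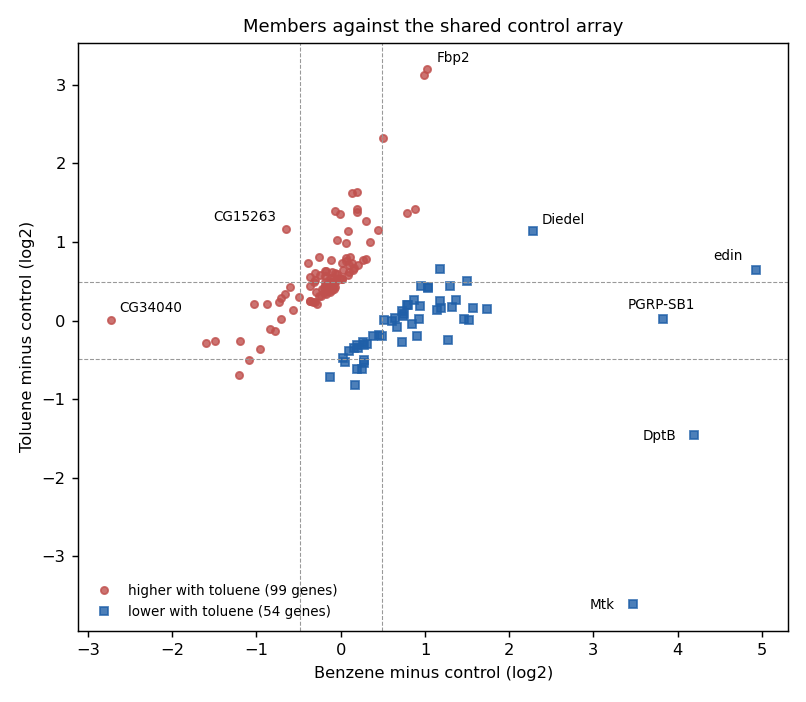
Toluene minus control (vertical axis, log2) against benzene minus control (horizontal axis, log2) for the 153 genes, both differences sharing the 1 control array, with dashed lines at 1.4-fold. Fbp1 and Fbp2 lie at the top, edin, DptB, PGRP-SB1 and Mtk to the right, and CG34040 at the far left at a toluene value equal to the control.

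Values on either side of the threshold were close. Just inside it on the higher side were CG5953 (12.74 with toluene and 12.26 with benzene), Mthfs (9.02 and 8.54) and UK114 (11.34 and 10.85), with folds of 1.4. Just outside were CG11825 (7.26 with toluene and 6.77 with benzene), St1 (7.17 and 6.68) and Ance-4 (8.96 and 8.47), also at 1.4 after rounding. On the lower side CG3348 (9.31 with toluene and 9.81 with benzene), CG14615 (6.69 and 7.19) and CG1946 (6.27 and 6.77) were just inside at 1.41-fold. PPO2, for a phenoloxidase (6.31 with toluene and 6.79 with benzene), TBC1D5 (8.18 and 8.67) and the lipoprotein receptor gene LpR2 (9.57 and 10.05) were just outside.

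Differences of photoreceptor genes stayed under the threshold. Of 23 detected phototransduction genes, 20 had a lower value with toluene than with benzene, beside 2793 of all 8126 detected genes. Their median was -0.21, and 0 reached 1.4-fold. Arr1, an arrestin gene of the eye, had 11.73 with toluene, 11.93 with benzene, 11.83 with formaldehyde and 11.65 in the control, and the scaffold gene inaD had 7.73, 8.03, 8.0 and 7.67 on these arrays in that order. The benzene array was the highest of the 4 for both. Under spike-in centring the phototransduction median was -0.07. Other tissue lists also mostly shared a sign, with smaller medians. Of 31 detected accessory gland genes 27 were below 0 (median -0.04), and of 22 detected testis genes 21 were above 0 (median 0.07).

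Further probe sets were read for the 6 genes that had them. CG34040 gave 1.84 at another probe set, beside 2.74, Arc1 0.49 beside 0.82, smp-30 0.96 beside 0.74 and Tsf1 -0.66 beside -0.50. They had the same direction as the brighter probe set, although the other smp-30 probe set was below background with benzene (4.38). CG5953 had -0.10 at its other probe set (7.60 with toluene and 7.70 with benzene) beside 0.49, so the 2 disagreed. A further probe set of CG9886 and one of Tsf1 were below background on both arrays. These probe sets read the same RNA and check the probes, not the flies.

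Some of the 153 genes lie side by side in the genome. In the RefSeq gene order, 18 of them had another of the 153 at most 2 genes away, in 9 groups, and in 8 of the 9 groups the direction was shared. No count over all detected genes stands beside these numbers, and nothing is read from them. Lower together were Jon25Bi with Jon25Bii, Jon65Ai with Jon65Aiii, CG18585 with CG7025, CG30026 with CG34054 and CG15044 with CG15043. Higher together were Mal-A7 with Mal-A8, Arc1 with Arc2, and CG15263 with UK114. Prat2 was higher and its neighbour CG14820 lower. Several of these pairs are members of a gene family, in which probe sets of similar sequence can share signal.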

How the data were processed

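The authors deposited log2 probe set values of 4 Affymetrix arrays in 1 table. Affymetrix Expression Console 1.1, RMA and MAS5 appear in the submitters' processing notes without roles, so which of them made the deposited log2 values is not stated. Total RNA was column-purified, amplified from the 3' end and biotin-labelled, per the labels' protocols. Groups came from the sample titles. Values were used as deposited, with 18952 probe sets, 183 of them array controls and 13647 with a single symbol in the platform annotation. RefSeq's Release 6 table gave names and gene order alone. A gene took the probe set of highest mean over the 4 arrays (1094 genes had several). Background was the 95th percentile of 20 unspiked control probe sets. With 1 array per group only folds were computed, in Python 3.11.15 with pandas 2.3.3, after a check on simulated data. The number of arrays limits precision.

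The genes and the 41 gene lists were chosen with earlier results of these data known. The 4 further lists and the role classes, by hand, came after these values were seen. Lists were described by counts and medians. Named with values were the 15 largest differences in each direction, up to 4 past 1.4-fold per list, the genes at the threshold, tissue markers, and Rel, imd, GstD1, Cyp6g1, Jheh1, Drs, TotC and InR whatever their value, and any other of the 153 could be named besides. Alternatives changed the scaling, the filter, the choice of probe set and the fold. Promoter motifs were not analysed here.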

Additional observations from a re-analysis of the deposited data

Results flagged for a closer look

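The genes Mtk, DptB and CG15263 stood on opposite sides of the control with the 2 aromatics, each by at least 1.4-fold. Their toluene minus benzene differences were -7.08 for Mtk, -5.64 for DptB and 1.82 for CG15263, and whether the compounds differ in these genes was not tested, since each group has 1 array.

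Probe sets without a single gene symbol lie outside the gene counts. Of these, 31 were detected and at least 1.4-fold apart, and 11 were at least 2-fold apart with the brighter array at least 2-fold above the control. Their genes are unnamed here. The 4 largest were at 5.79 with toluene and 13.15 with benzene (difference -7.36, control 7.92), 7.03 and 13.42 (-6.40, control 8.25), 3.45 and 9.54 (-6.09, control 3.73) and 7.82 and 13.62 (-5.79, control 9.02). In the third of these the toluene and control values were below background, so its difference has no measured lower end. Then came 5 more that were lower with toluene, with differences of -3.20, -2.16, -1.86, -1.22 and -1.20. The remaining 2 were higher with toluene, at 7.34 with toluene and 5.45 with benzene (1.89, control below background at 4.65) and at 11.32 and 9.91 (1.41, control 9.24). The size of the -7.36 exceeds that of any named gene.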

How the results depend on the processing

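No paired analysis was possible because each group has 1 array, so the groups share fewer than 2 replicate numbers. As deposited, 99 genes passed 1.4-fold upward and 54 downward with toluene. Median centring gave 89 and 59, quantile scaling 83 and 61, and removal of a lowess trend 83 and 62. Without a filter there were 119 and 69, with the filter at the 75th percentile 71 and 37, and with both values at the median 88 and 44. Means over probe sets gave 97 and 53, and leaving out probe sets that can match several transcripts 94 and 52. All probe sets but array controls, an alternative chosen after seeing the data, gave 116 and 72. A fold of 1.5 left 66 and 42, and a fold of 2 left 20 and 16. Spike-in centring, also chosen after seeing the data, gave 188 and 33, with 99 of the 99 and 33 of the 54 kept. In no gene of the 153 that was recomputed did the direction reverse under another scaling or probe set choice. List medians kept their sign without a filter, and 7 of 43 changed sign under spike-in centring, 6 under lowess, 5 under quantile scaling, 2 under median centring, 3 without the probe sets that can match several transcripts, and 1 each with means over probe sets and with both values at the median. With the filter at the 75th percentile 4 of 41 did. Signal near background limits the dimmest genes.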
